A study of Macaca mulatta with 30 samples.

Results

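The genes described here encode the glycosyltransferases and sulfotransferases that build mucin-type, N-linked, lipid-linked and proteoglycan sugar chains, read in 5 tissues of rhesus macaques (Macaca mulatta). They were taken by symbol: every gene whose name starts with GALNT, ST3GAL, ST6GAL, ST8SIA, FUT, GCNT, C1GALT1, B3GNT, B3GALT, B4GALT, B4GALNT, A4GALT, A4GNT or CHST. Of 21292 gene names in the deposited table, 97 matched, and 64 of these reached at least 1 TPM (a transcript level corrected for length and scaled to the same total in each library) in at least 6 of the 30 libraries. The other 33 fell below that limit, and 13550 genes of any kind passed it. A symbol says which enzyme family a gene belongs to, not that its product acts as an enzyme. C1GALT1C1, for example, encodes the chaperone that the core 1 galactosyltransferase needs.

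Glycans are built in the secretory pathway one sugar at a time. In mucin-type O-glycosylation, GALNT enzymes attach the first sugar to serine or threonine, core enzymes extend or branch it, other enzymes lengthen the chain with galactose and N-acetylglucosamine, and fucose, sialic acid or sulfate finish its ends. Salivary mucins carry dense O-glycans, which hold water and bind microbes, while the liver secretes most plasma glycoproteins, whose N-glycans commonly end in sialic acid.

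The study measured RNA in parotid, submandibular and sublingual salivary glands, pancreas and liver of 6 rhesus macaques, with 1 library per tissue and animal, 30 in all. Each tissue group therefore has 6 libraries, one from each animal. The first 4 animals (1 to 4) are labelled female and the last 2 (5 and 6) male. All tissue was flash frozen, no group was treated, and RNA was taken from tissue sections and sequenced as paired reads. Ages are not given in the labels. The series compares tissues within animals, with each gland against pancreas and pancreas against liver as its main comparisons. Each library is bulk tissue, in which fewer cells of a type and less RNA per cell cannot be told apart.

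Marker genes followed the labels in most libraries: hepatocyte sums were 109277 to 169848 TPM in liver and at most 5326 TPM elsewhere. Several libraries stood apart. The pancreas library of animal 4 had a summed acinar marker level of 4555 TPM, against 205715 to 413985 in the other 5, and an adipocyte sum of 18433 TPM. The submandibular library of animal 4 had a serous marker sum of 1908 TPM, against 254052 to 350203, with adipocyte, fibroblast and macrophage sums of 8248, 5000 and 872 TPM. Skeletal muscle sums reached 72993 TPM in the parotid library of animal 6 and 23534 TPM in the sublingual library of animal 5. The sublingual library of animal 4 had a mucous marker sum of 3411 TPM and a blood sum of 34660 TPM, and that of animal 1 had blood and muscle sums of 14793 and 7714 TPM. The pancreas library of animal 3 had an islet sum of 132640 TPM, against 450 to 12707 in the other 5. The part of these cells in the results was not tested.

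TPM is a share of a fixed total, so a few very abundant genes lower all others. The 10 most abundant genes took 38.8 to 81.4% of a parotid library and 20.3 to 27.4% of a liver library. Every test was therefore also run after trimmed-mean scaling, which rescales each library by the typical ratio of its genes to those of the others. On the log2(TPM + 1) scale the median difference over all genes between sublingual gland and parotid was 0.70 as deposited and -0.004048 after that scaling, and between the mean of the 3 glands and liver it was -0.54 and 0.054. A gene is called here when limma, fitted to all genes with animal as a block, gave a Benjamini-Hochberg adjusted p below 0.05.

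The 64 genes were modest in level. Their means over the 30 libraries ran from 0.544 TPM for ST8SIA6 to 37.3 TPM for ST6GALNAC2, with a median of 3.23 TPM against 5.48 TPM for all tested genes. At least 1 TPM was read in all 30 libraries for 16 of them. For 2 of them, CHST13 and CHST5, libraries at or above 1 TPM came from a single tissue, the liver. The limit fell close to several genes: B4GALNT1, FUT1 and ST8SIA6 passed with 6 libraries, as CHST13 and CHST5 did, while B3GNT6 and GCNT4 missed it with 5. B3GNT6, the core 3 enzyme, had 5 sublingual libraries at 1 TPM or more and a sublingual mean of 4.21 TPM. GCNT4, another branching enzyme, had 5 pancreas libraries there and a pancreas mean of 2.92 TPM. For 16 of the 64, fewer than 6 libraries at 1 TPM or more remain without the tissue that gave the most such libraries. Counts of calls are therefore descriptions of these genes and not a measure of how the family as a whole responds. Of the genes whose levels are given below, B4GALNT4, CHST5, CHST13, FUT1, ST6GALNAC1 and ST8SIA3 are among these 16, and their levels are given with no test.

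By role, 14 of 20 matched O-glycan initiators passed the limit, 6 of 9 genes for cores and branches and 11 of 16 for chain extension. So did 8 of 11 for glycolipid cores and the proteoglycan linker, 4 of 7 fucosyltransferases, 12 of 17 further sialyltransferases and 9 of 15 sulfotransferases. The sialyltransferases ST3GAL5, ST8SIA1 and ST8SIA5 were counted with the glycolipid genes. The summed level of all 64 averaged 243 ± 49.0 TPM in parotid (SD, n = 6 in each tissue) and 351 ± 273 in submandibular gland. Sublingual gland had 508 ± 165 TPM, pancreas 291 ± 115 and liver 450 ± 75.8. The highest library of all was the submandibular one of animal 4, at 906 TPM, while the lowest submandibular library had 204 TPM. Sialyltransferases other than ST3GAL5 formed the largest class in 4 tissues. Their mean shares of the summed level were 49.6% (parotid), 44.7% (submandibular gland), 41.6% (pancreas) and 38.6% (liver). ST3GAL5, counted with the glycolipid genes, held a further mean of 15.8% of the liver sum. In sublingual gland the core and branching class was largest, with a mean of 31.0% and a range of 12.9 to 48.4%, against means of 2.36 to 4.88% in the other 4 tissues.

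**Figure D1:**
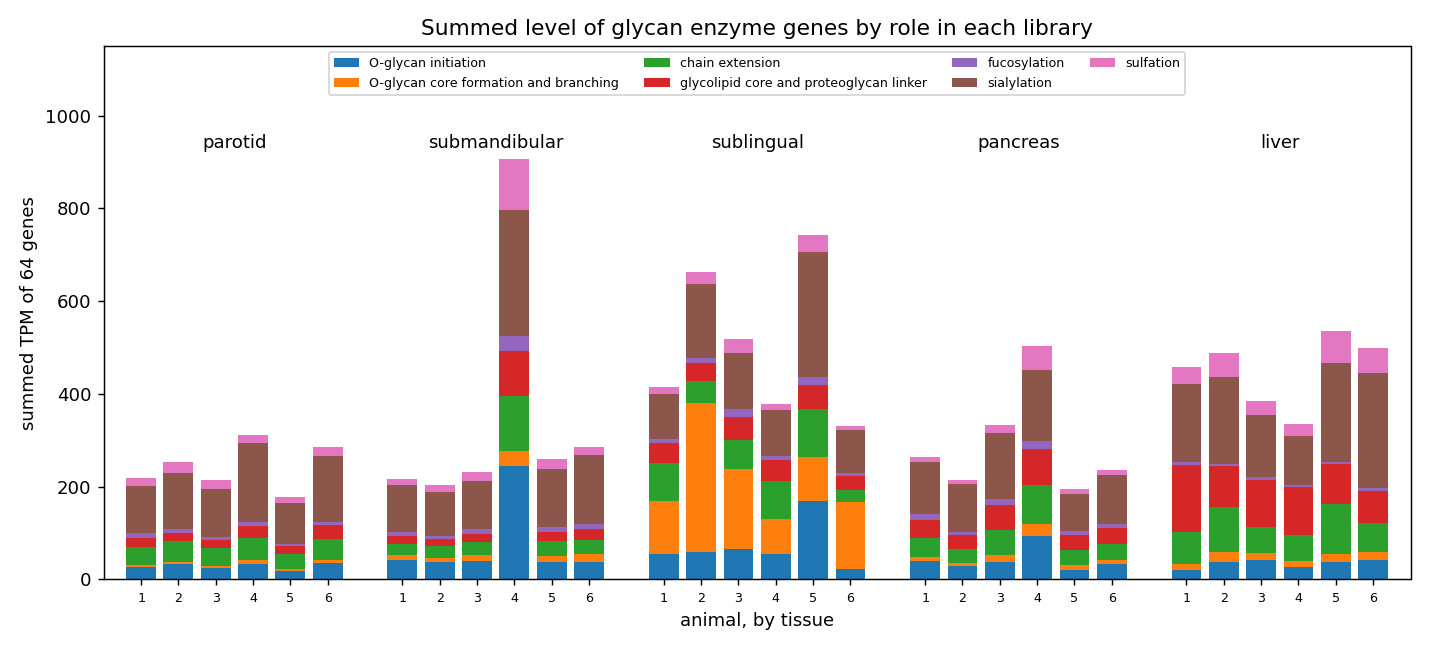
Summed TPM of the 64 glycan enzyme genes in each of the 30 libraries, stacked by role, with animals 1 to 6 on the x axis within each tissue. The core and branching class is tall in sublingual gland, where it held 12.9 to 48.4% of the sum, and the submandibular library of animal 4 stands out at 906 TPM.

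The leading gene differed between most tissues. ST6GALNAC2 was the most abundant of the 64 in parotid and submandibular gland, GCNT3 in sublingual gland, and ST3GAL5 in liver. In pancreas ST6GALNAC6 and ST6GALNAC4 led with means of 34.4 and 33.6 TPM. Without the pancreas library of animal 4 these were 29.7 and 37.5 TPM, so that library set their order. The tissue with the highest mean was sublingual gland for 22 genes (34.4% of the 64, against 32.8% of all tested genes), liver for 20 (31.2% against 45.4%), submandibular gland for 13 (20.3% against 7.18%), pancreas for 7 (10.9% against 11.1%) and parotid for 2 (3.12% against 3.45%). Of the 13 submandibular maxima, 10 were lost when the submandibular and pancreas libraries of animal 4 were left out. Submandibular gland was then highest for 4 genes (6.25% against 1.05% of all tested genes), sublingual gland for 30 (46.9% against 38.2%) and liver for 23 (35.9% against 48.6%).

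Between glands, 29 of the 64 genes were called in sublingual gland against parotid, 27 higher and 2 lower. That is 45.3% of them, against 41.5% of all tested genes, of which 40.6% were higher and 0.893% lower. After trimmed-mean scaling 23 were called, 14 higher and 9 lower. Of all genes 17.8% were then called, 9.56% higher and 8.23% lower. Both ways and with the same sign, 16 genes were called, a count with no share of all genes to set beside it. As deposited, 19 were called without animal 5, against 23.1% of all genes. In sublingual against submandibular gland 14 genes were called, 12 higher and 2 lower, which is 21.9% against 27.9% of all genes (27.2% higher and 0.753% lower). After scaling 13 were called, 6 higher and 7 lower, against 15.0% of all genes (8.53% higher and 6.49% lower). As deposited that count was 9 without animal 1 and 38 without animal 4, against 9.45 and 65.4% of all genes. With only the submandibular and pancreas libraries of animal 4 left out it was 39, and 66.7% of all genes were then called.

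Parotid and submandibular gland differed at 3 of the 64 genes, with B4GALNT3 higher and A4GALT and GCNT1 lower in parotid (4.69% against 0.347% of all genes, 0.133% higher and 0.214% lower). After scaling 4 genes were called, all lower in parotid, against 0.708% of all genes (0.28% higher and 0.428% lower). This small count was not stable. The fit gave 0 calls without animal 1, 2, 3 or 5, with 8, 13, 10 and 12 genes at an unadjusted limma p below 0.05. It gave 1 call without animal 6. Between 0.0369 and 0.192% of all genes were called in these fits.

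Against pancreas, 19 genes were called in sublingual gland, 15 higher and 4 lower, which is 29.7% against 13.9% of all genes (10.4% higher and 3.51% lower). After scaling 13 were higher and 7 lower there, against 21.5% of all genes (11.3% higher and 10.2% lower). In parotid 15 genes were called, 4 higher and 11 lower, which is 23.4% against 15.8% of all genes (2.24% higher and 13.6% lower). After scaling 10 were higher and 9 lower, against 17.1% of all genes (8.39% higher and 8.75% lower). In submandibular gland 13 were called, 6 higher and 7 lower, which is 20.3% against 9.71% of all genes (2.25% higher and 7.46% lower). After scaling 15 were higher and 7 lower, against 16.1% of all genes (8.13% higher and 8.0% lower). As deposited, the submandibular count ranged from 6 to 24 as each animal was left out. It was 6 without animal 1, 7 without animal 2, 6 without animal 3, 8 without animal 5 and 24 without animal 4. The share of all genes ranged from 4.6 to 29.1% in these fits. With a filter of 5 TPM, which tested 33 of the genes, 15.2% of them were called in sublingual gland, against 14.2% of all genes. In parotid the shares were then 30.3 and 18.5%, and in submandibular gland 27.3 and 12.1%.

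Against liver, 23 genes were called in pancreas, 10 higher and 13 lower, which is 35.9% against 30.4% of all genes (6.76% higher and 23.6% lower). After scaling 21 were higher and 11 lower, against 36.7% of all genes (16.6% higher and 20.1% lower). In the mean of the 3 glands 37 were called, 19 higher and 18 lower, which is 57.8% against 52.6% of all genes (8.49% higher and 44.1% lower). After scaling 29 were higher and 12 lower, against 51.7% of all genes (26.1% higher and 25.6% lower). Without the submandibular and pancreas libraries of animal 4, as deposited, 48 were called in the glands, 19 higher and 29 lower, against 67.6% of all genes (9.56% higher and 58.1% lower), and 33 in pancreas, 13 higher and 20 lower, against 48.8% (7.74% higher and 41.0% lower). The pancreas count was 13 without animal 1 and 15 without animal 2, against 21.8 and 20.8% of all genes. The median difference between the glands and liver was 0.0097 over the 64 genes and -0.54 over all genes on the log2(TPM + 1) scale. After scaling these medians were 0.40 and 0.054. As deposited but without the submandibular and pancreas libraries of animal 4 they were -0.16 and -0.64, and without animal 4 altogether -0.24 and -0.68. Over the 8 comparisons 49 genes were called at least once and 15 never, and the same share over all genes is not given here. The comparisons share libraries, so their calls are not independent of each other.

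**Figure D2:**
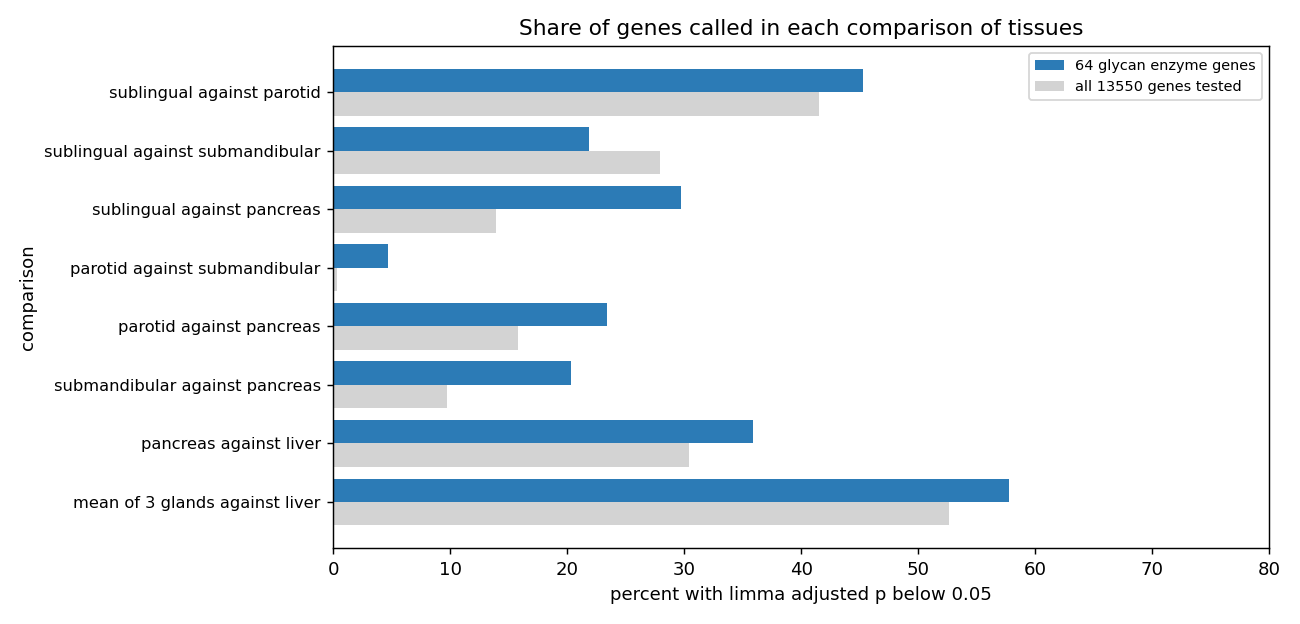
Percent of genes with a limma adjusted p below 0.05 in each of the 8 comparisons of tissues, for the 64 glycan enzyme genes and for all 13550 genes tested, with TPM as deposited. The shares of the 64 lie near those of all genes in sublingual gland against parotid (45.3 and 41.5%). They lie further apart in sublingual gland against pancreas (29.7 and 13.9%), but with a filter of 5 TPM the latter shares were 15.2 and 14.2%.

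**Figure D3:**
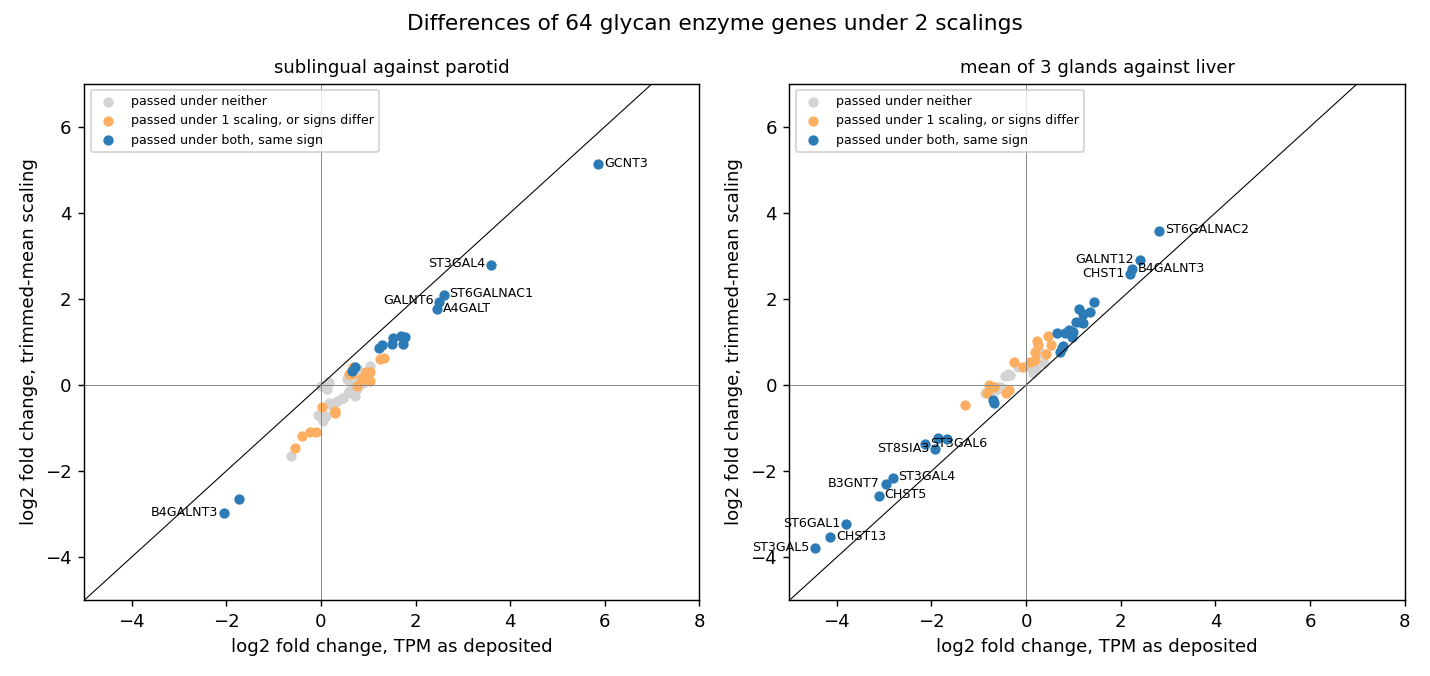
Difference of each of the 64 genes in sublingual gland against parotid (left) and in the mean of the 3 glands against liver (right), with the deposited TPM on the x axis and trimmed-mean scaling on the y axis, both as log2 of TPM + 1. Points lie below the diagonal on the left and above it on the right, and GCNT3 stands alone at 5.86 and 5.12 in the left panel.

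The genes below were taken by a rule on size, level and agreement of both scalings, or as the highest of a tissue or role, which together gave 19. A further 12 were added after their values had been seen: GALNT6, ST6GALNAC1, GCNT1, C1GALT1, C1GALT1C1, B4GALT4, B4GALNT4, FUT1, FUT7, CHST1, CHST5 and ST8SIA3. Levels are TPM, given as the lowest, median and highest of the 6 libraries of a tissue, and differences are on the log2(TPM + 1) scale, which understates those of low genes.

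**Figure D4:**
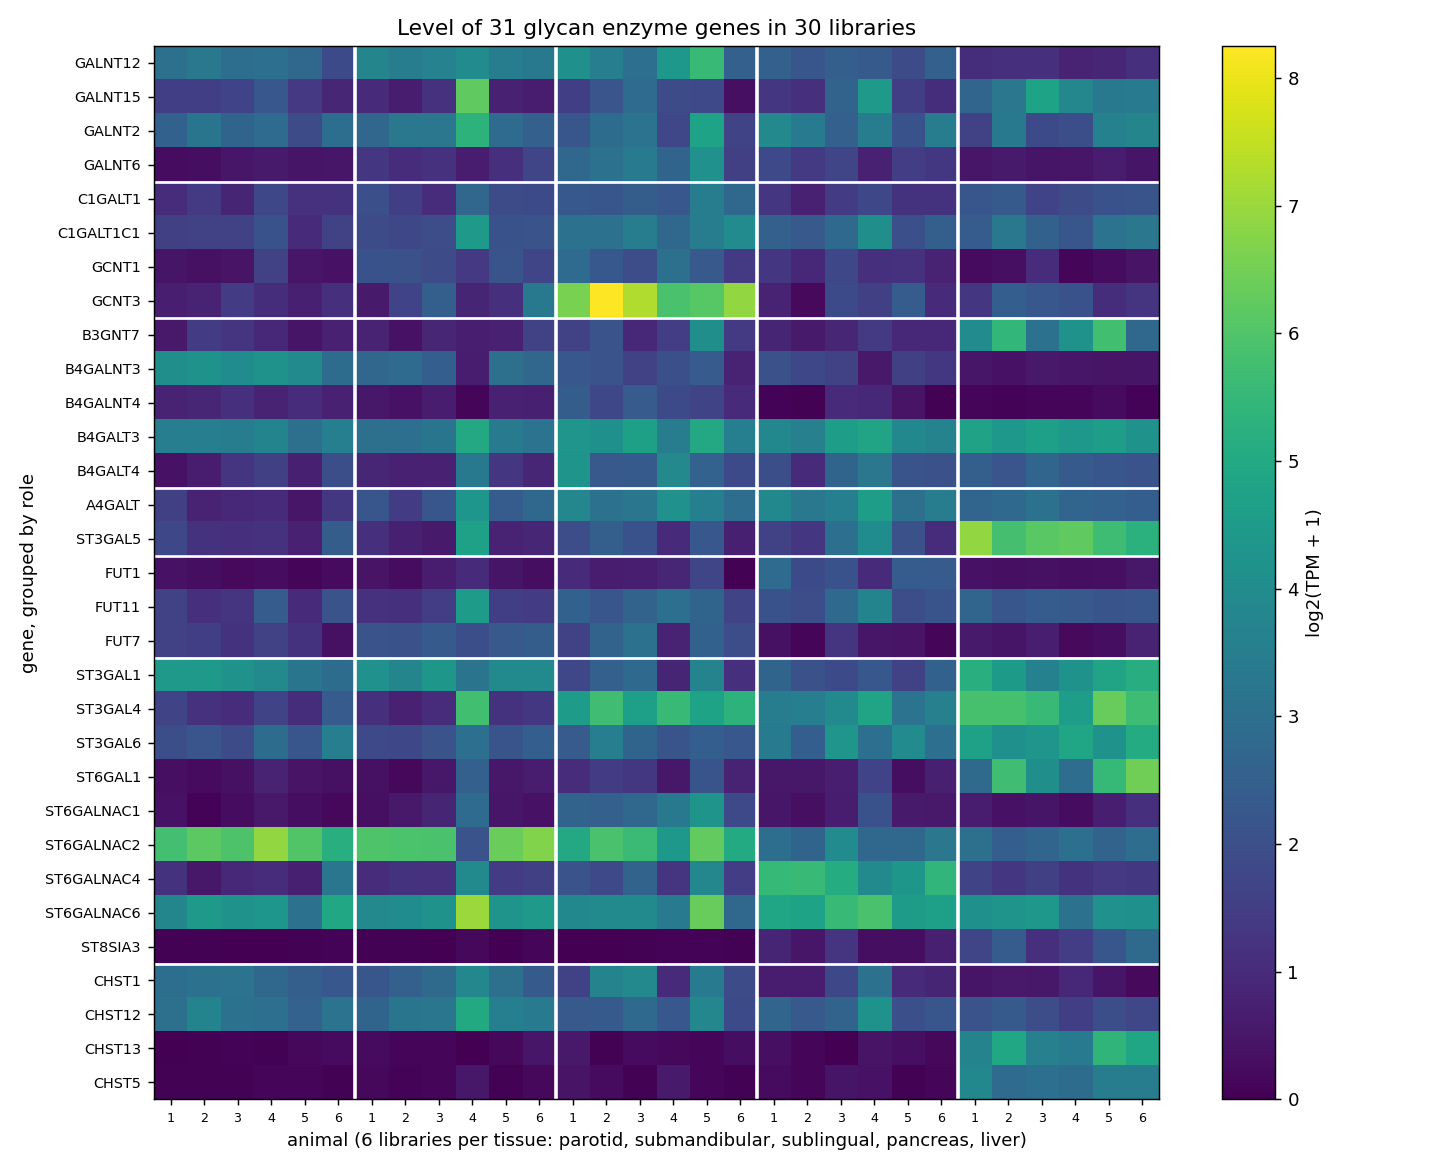
Level, as log2(TPM + 1), of the 31 named genes (rows, grouped by role from initiation at the top to sulfation at the bottom) in the 30 libraries (columns, animals 1 to 6 within each tissue). GCNT3 is brightest in sublingual gland, at 58.5 to 304 TPM, while CHST13 and CHST5 are visible only in the liver columns, and the submandibular column of animal 4 departs from its neighbours in many rows.

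Among the 14 initiators, 7 were higher in sublingual gland than in parotid, or 3 after trimmed-mean scaling (40.6 and 9.56% of all genes), and 6 were higher in the glands than in liver, or 11 after scaling (8.49 and 26.1% of all genes). GALNT5 is in each of these counts, and 5 of its 7 libraries at 1 TPM or more were sublingual, so the limit favours its calls. GALNT6, a close relative of GALNT3, had 1.93, 6.66 and 17.0 TPM in sublingual gland, 0.212, 0.396 and 0.520 in parotid, and 0.391, 0.406 and 0.554 in liver. Every sublingual library lay above every parotid and liver library. GALNT6 was 2.50 ± 0.27 (SE) higher in sublingual gland than in parotid (limma adjusted p = 3.69e-07, 6 of 6 animals) and 1.94 higher after scaling. Against submandibular gland, at 0.569, 1.22 and 2.33 TPM, it was 1.77 ± 0.27 higher (limma adjusted p = 9.03e-05), in 5 of 6 animals and with overlapping ranges.

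GALNT12, another initiator, followed a gland pattern with liver lowest. Its levels were 2.62, 6.94 and 8.77 TPM in parotid, 9.03, 10.9 and 14.8 in submandibular, 4.76, 13.6 and 45.7 in sublingual libraries, 2.78, 4.34 and 4.81 in pancreas, and 0.786, 1.13 and 1.22 in liver. All 18 gland libraries lay above all liver libraries. The glands exceeded liver by 2.40 ± 0.27 (limma adjusted p = 3.58e-08, 6 of 6 animals). The sublingual maximum of 45.7 TPM came from animal 5, the library with the muscle signal. The difference of GALNT12 between sublingual gland and parotid was 1.04 as deposited and 0.088 after scaling, where it was not called (adjusted p = 0.892).

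GALNT15 and GALNT2 show how 1 library can set a mean. GALNT15 had 0.586, 0.847 and 75.2 TPM in submandibular gland, where the maximum was animal 4, and 5.53, 9.22 and 26.8 TPM in liver. Its submandibular mean of 13.2 TPM exceeded the liver mean of 12.1 TPM while its submandibular median was 0.847 TPM. Even so, the glands were 1.86 ± 0.43 below liver (limma adjusted p = 0.000865), and 2.14 below without the submandibular and pancreas libraries of animal 4. GALNT15 was also lower in pancreas than in liver (limma adjusted p = 0.0287), but the adjusted p was 0.0938 without the animal block. Leaving out animal 1, 2, 3, 5 or 6 also ended that call, with adjusted p-values up to 0.111. GALNT2, a widely expressed initiator, was not called in any comparison. Its tissue medians lay between 5.15 and 9.97 TPM.

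The 6 genes for cores and branches were all called higher in sublingual gland than in parotid, and 3 of them after trimmed-mean scaling (40.6 and 9.56% of all genes). GCNT3, which forms core 2 and core 4 branches in mucin-secreting tissues, was the most abundant of the 64 genes in any tissue. It stood at 58.5, 108 and 304 TPM in sublingual gland, against 0.602, 0.923 and 1.77 in parotid, 0.505, 1.68 and 9.05 in submandibular gland, 0.162, 1.47 and 4.31 in pancreas, and 1.12, 2.37 and 4.52 in liver. All 6 sublingual libraries lay above all 24 others. GCNT3 was 5.86 ± 0.41 higher in sublingual gland than in parotid (limma adjusted p = 2.79e-10), 5.15 ± 0.41 higher than in submandibular gland (limma adjusted p = 6.28e-09) and 5.53 ± 0.41 higher than in pancreas (limma adjusted p = 8.59e-10), in 6 of 6 animals each.

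Leaving out each animal in turn kept the GCNT3 difference from parotid between 5.54 and 6.07, and trimmed-mean scaling gave 5.12. GCNT3 alone made up a mean of 26.5% of the summed level of the 64 genes in sublingual gland, from 9.11 to 45.9% of a library. The lowest sublingual value, 58.5 TPM, was that of animal 4, whose mucous marker sum was 3411 TPM against 33181 to 353980 TPM in the other 5. The part of mucous cell content in the level of GCNT3 was not tested.

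GCNT1, the more widely expressed core 2 enzyme, showed a smaller range. Its levels were 0.290, 0.364 and 2.02 TPM in parotid, 1.59, 2.96 and 3.42 in submandibular, 1.65, 3.87 and 7.35 in sublingual libraries, 0.755, 1.20 and 2.43 in pancreas, and 0.0769, 0.229 and 1.09 in liver. The highest parotid value was that of animal 4, and the other 5 parotid libraries lay below all submandibular ones. GCNT1 was 1.68 ± 0.26 higher in sublingual gland than in parotid (limma adjusted p = 4.05e-05, 6 of 6 animals) and 1.20 ± 0.21 higher in the glands than in liver (limma adjusted p = 3.37e-05). Its call in parotid against submandibular gland (-1.25 ± 0.26, limma adjusted p = 0.0211) was lost without animal 1, 2, 3, 5 or 6, with adjusted p-values up to 0.265.

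C1GALT1, which adds galactose to form core 1, had 3.62, 4.14 and 10.2 TPM in sublingual gland and 0.810, 1.27 and 2.44 in parotid, with no overlap. Its difference of 1.33 ± 0.25 was called as deposited (limma adjusted p = 0.000391) and not after scaling (0.62, adjusted p = 0.0532). Its chaperone C1GALT1C1 had 5.90, 8.83 and 14.9 TPM in sublingual gland and 1.03, 2.05 and 3.21 in parotid. C1GALT1C1 was 1.74 ± 0.36 higher in sublingual gland (limma adjusted p = 0.00087), or 0.95 after scaling (adjusted p = 0.0125). A similar gene, C1GALT1C1L, is among the 64, and how reads common to both copies were assigned is not given in the sources used here, which leaves the level of each uncertain.

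**Figure D5:**
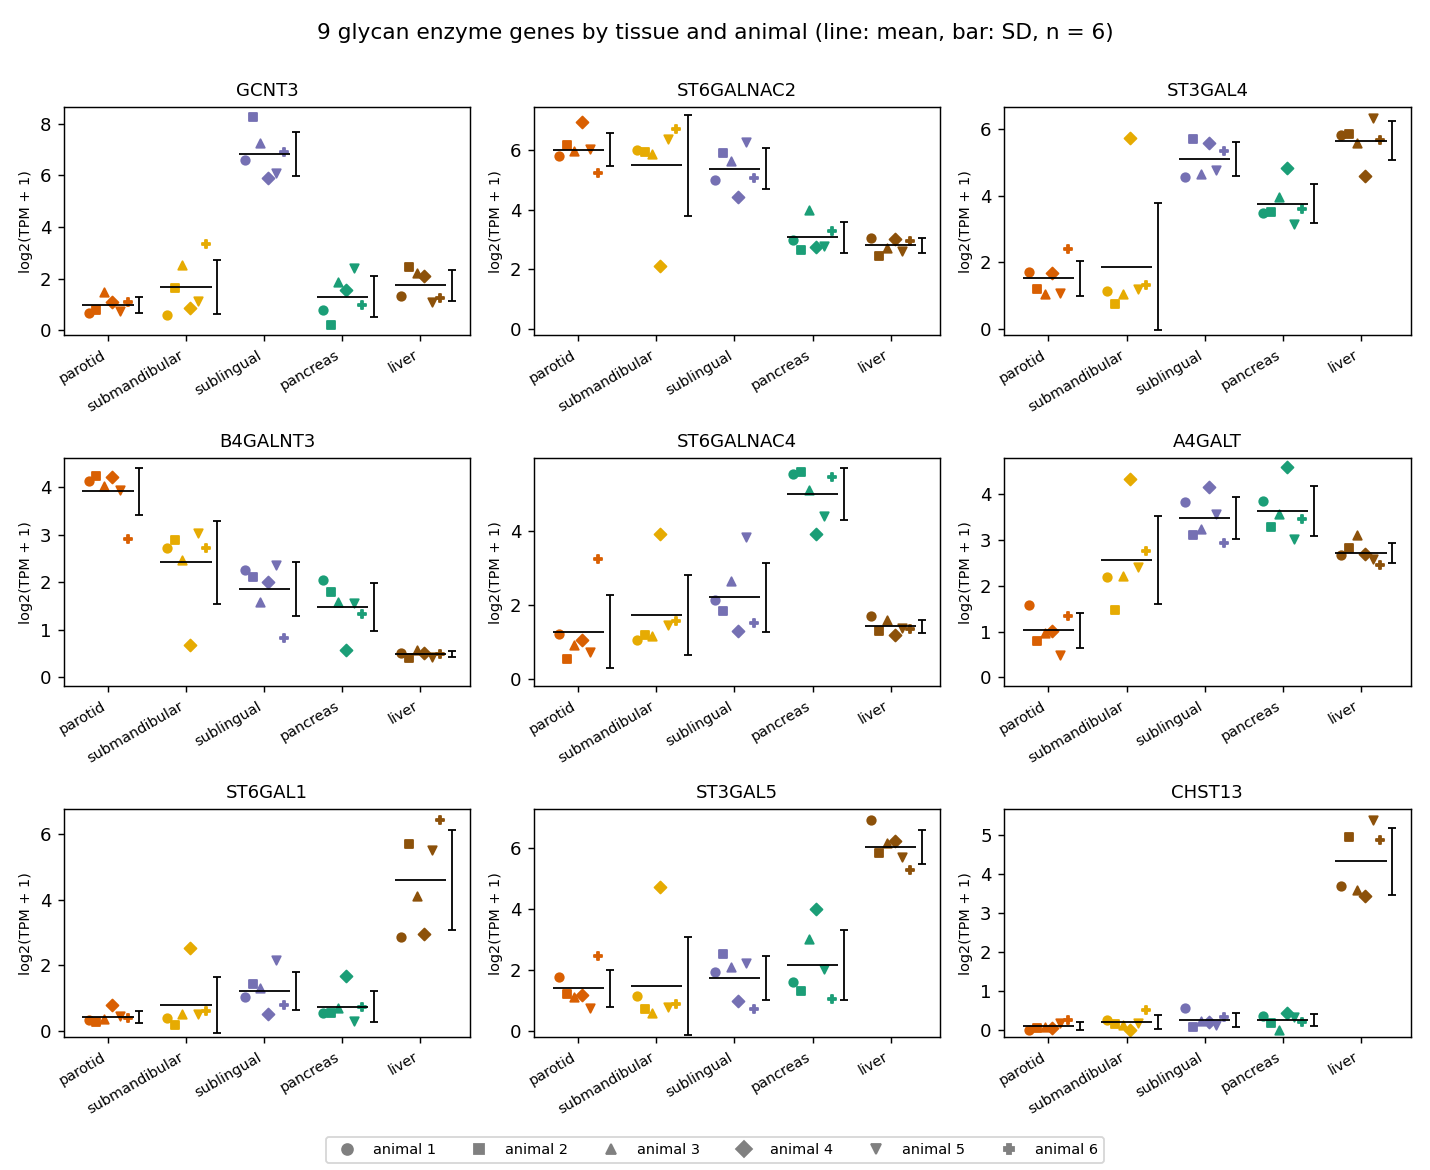
Level of 9 of the genes as log2(TPM + 1) (y axis) in each tissue (x axis), with 1 symbol shape per animal, a line at the mean and a bar for the SD (n = 6). GCNT3 is high in all 6 sublingual libraries, B4GALNT3 in parotid, ST6GALNAC4 in pancreas, and ST6GAL1, ST3GAL5 and CHST13 in liver, and animal 4 (diamond) often departs from the others in submandibular gland.

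Of the 11 chain extension genes, 5 had their highest mean in liver, 4 in sublingual gland and 1 each in parotid and submandibular gland. B4GALNT3, which caps N-acetylglucosamine with N-acetylgalactosamine to make LacdiNAc, was the clearest parotid gene of the family. It had 6.52, 15.9 and 18.0 TPM in parotid, 0.594, 5.59 and 7.18 in submandibular, 0.766, 3.18 and 4.15 in sublingual libraries, 0.492, 1.98 and 3.11 in pancreas, and 0.320, 0.405 and 0.489 in liver. The lowest parotid value was that of animal 6, the library with the muscle signal, and the other 5 lay above all 24 libraries of other tissues. B4GALNT3 was 2.43 ± 0.31 higher in parotid than in pancreas (limma adjusted p = 2.59e-06) and 2.06 lower in sublingual gland than in parotid (log2 difference -2.06 ± 0.31, limma adjusted p = 3.43e-05), in 6 of 6 animals each. The second LacdiNAc enzyme, B4GALNT4, had its highest level in sublingual gland, at 1.01, 2.56 and 4.38 TPM against 0.106, 0.499 and 0.677 in submandibular gland. Those ranges did not overlap. Of the 8 B4GALNT4 libraries at 1 TPM or more 6 were sublingual and 0 submandibular. The limit itself therefore favours that gap, and no test is given.

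B3GNT7, which extends poly-N-acetyllactosamine chains of the keratan sulfate type, was a liver gene in these data. Liver had 5.69, 16.1 and 53.3 TPM and pancreas 0.518, 0.892 and 1.64, without overlap. Pancreas was 3.27 ± 0.43 below liver (limma adjusted p = 7.16e-07, 6 of 6 animals). The sublingual library of animal 5 reached 16.3 TPM, while the other 5 sublingual libraries had at most 3.36 TPM. Of the galactosyltransferases, B4GALT3 was the highest chain extender in sublingual gland and pancreas, with tissue medians from 8.08 TPM in submandibular gland to 21.5 TPM in liver. Its difference between the glands and liver was -0.79 ± 0.25 as deposited (limma adjusted p = 0.011) and -0.0035 after scaling (adjusted p = 0.983). B4GALT4 had 2.64, 4.57 and 18.4 TPM in sublingual gland and 0.330, 1.04 and 2.95 in parotid, and was 1.78 ± 0.37 higher in sublingual gland (limma adjusted p = 0.000829, 5 of 6 animals).

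Of the 8 glycolipid and linker genes, ST3GAL5 and A4GALT start alternative paths from lactosylceramide. ST3GAL5, which makes the ganglioside GM3, was the most abundant of the 64 in liver, at 37.4, 62.8 and 119 TPM. Medians elsewhere ran from 0.793 TPM in submandibular gland to 3.06 TPM in sublingual gland. The submandibular library of animal 4 reached 25.5 TPM and the pancreas library of animal 4 reached 15.1 TPM, still below every liver library. The glands were 4.46 ± 0.43 below liver (limma adjusted p = 2.47e-09) and pancreas 3.84 ± 0.53 below it (limma adjusted p = 1.99e-06), in 6 of 6 animals each.

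A4GALT, which makes the globoside precursor Gb3, was lowest in parotid. It had 0.405, 0.974 and 1.98 TPM there, 1.79, 3.97 and 19.0 in submandibular, 6.68, 9.73 and 16.9 in sublingual libraries, 7.17, 10.5 and 23.1 in pancreas, and 4.50, 5.43 and 7.59 in liver. No parotid library reached the lowest sublingual, pancreas or liver value. Parotid was 2.61 ± 0.30 below pancreas (limma adjusted p = 6.93e-07), and sublingual gland was 2.45 ± 0.30 above parotid (limma adjusted p = 2.18e-06), in 6 of 6 animals each. Parotid was also 1.54 ± 0.30 below submandibular gland (limma adjusted p = 0.0137), a call that was lost without animal 1, 2, 3, 5 or 6, with adjusted p-values up to 0.134. The linker enzyme B4GALT7, which adds the first galactose to proteoglycan xylose, was never called, with tissue means between 10.7 and 15.2 TPM.

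Among the 4 fucosyltransferases, FUT1, which makes the H antigen, was highest in pancreas and FUT7, which completes sialyl Lewis x, in submandibular and sublingual gland. The names FUT2, FUT3, FUT5 and FUT6 were not among the 97 that matched, so nothing can be said of those genes here. FUT1 had 0.980, 3.73 and 6.46 TPM in pancreas, 0.110, 0.193 and 0.327 in parotid and 0.236, 0.289 and 0.437 in liver. The lowest pancreas library, that of animal 4, lay above all parotid and liver libraries. Of its 6 libraries at 1 TPM or more 5 were pancreas, so FUT1 entered the 64 through that tissue and no test is given.

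FUT7 had 2.92, 3.59 and 4.45 TPM in submandibular gland and 0.107, 0.326 and 1.34 in pancreas, without overlap. The difference was 1.72 ± 0.27 (limma adjusted p = 6.49e-05, 6 of 6 animals), or 2.20 after scaling. FUT8, the core fucosyltransferase of N-glycans, had its highest tissue median in submandibular gland (3.55 TPM) and its lowest in liver (0.694 TPM). FUT11 had its highest tissue median in sublingual gland (5.07 TPM). Its pancreas mean of 5.13 TPM included 12.3 TPM in animal 4 and was 3.70 TPM without that library. It was called in sublingual gland against parotid as deposited (0.87 ± 0.34, limma adjusted p = 0.0416) and not after scaling (adjusted p = 0.615) or without the animal block (adjusted p = 0.0963).

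The named sialyltransferases had their highest medians in different tissues. ST6GALNAC2, which adds sialic acid to the inner N-acetylgalactosamine of O-glycans, was a gland gene. It had 36.0, 62.2 and 120 TPM in parotid, 3.31, 60.9 and 102 in submandibular, 20.2, 40.4 and 75.7 in sublingual libraries, 5.30, 6.37 and 14.9 in pancreas, and 4.51, 6.14 and 7.30 in liver. The value of 3.31 TPM was that of submandibular animal 4, and the other 17 gland libraries lay above all pancreas and liver libraries. The glands were 2.82 ± 0.40 above liver (limma adjusted p = 1.96e-06) and parotid 2.94 ± 0.49 above pancreas (limma adjusted p = 0.000118), in 6 of 6 animals each.

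ST6GALNAC1, the sialyl-Tn enzyme, lies near ST6GALNAC2 in the RefSeq gene order of assembly T2T-MMU8v2.0, with 1 protein-coding gene between them. It had another order of levels: sublingual gland had 2.55, 5.52 and 18.4 TPM and parotid 0.0602, 0.226 and 0.483, without overlap. Of its 9 libraries at 1 TPM or more 6 were sublingual and 0 parotid, so it passed the limit through sublingual gland. The limit itself favours such a gap, so the separation and the differences below are descriptions and no test is given. ST6GALNAC1 was 2.59 higher in sublingual gland than in parotid and 2.10 higher after scaling. Its sublingual maximum was that of animal 5, the library with the muscle signal. Without the 4 libraries set apart by muscle or fat markers (parotid of animal 6, sublingual of animal 5 and both of animal 4) the difference was 2.31.

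ST6GALNAC4, which forms disialylated core 1, was the pancreas gene of the class. It had 14.0, 38.0 and 46.9 TPM in pancreas and lower medians elsewhere: 0.974 TPM in parotid, 1.52 in submandibular gland, 1.57 in liver and 2.93 in sublingual gland. The lowest pancreas library, that of animal 4, was level to 2 decimals with the submandibular library of animal 4 (13.98 TPM), and the other 5 pancreas libraries lay above all 24 libraries of other tissues. The sublingual library of animal 5 reached 13.1 TPM and the parotid library of animal 6 reached 8.46 TPM. Pancreas was 3.58 ± 0.50 above liver (limma adjusted p = 2.06e-06), and parotid was 3.71 ± 0.50 below pancreas (limma adjusted p = 5.4e-06), in 6 of 6 animals each.

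ST6GALNAC6, which acts on gangliosides and Lewis-type chains, is the direct neighbour of ST6GALNAC4 in that gene order, with 0 protein-coding genes between them. It was not called in any comparison, with its median highest in pancreas (27.7 TPM) and lowest in sublingual gland (13.9 TPM), and 17.0 to 18.3 TPM in liver, submandibular gland and parotid. The submandibular library of animal 4 had 128 TPM and the sublingual library of animal 5 had 80.4 TPM.

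ST3GAL4, which adds sialic acid to lactosamine ends, joined sublingual gland with liver. It had 22.6, 32.9 and 51.7 TPM in sublingual gland, 22.9, 53.2 and 80.4 in liver, 7.79, 10.8 and 27.4 in pancreas, 1.07, 1.74 and 4.22 in parotid, and 0.678, 1.24 and 52.5 in submandibular gland. The submandibular value of 52.5 TPM was that of animal 4, and the other 5 were at most 1.51 TPM. ST3GAL4 was 3.59 ± 0.52 higher in sublingual gland than in parotid (limma adjusted p = 2.33e-05, 6 of 6 animals) and 3.24 ± 0.52 higher than in submandibular gland (limma adjusted p = 0.000172, 5 of 6 animals), or 4.04 without the submandibular and pancreas libraries of animal 4. Its call in submandibular gland against pancreas (-1.89 ± 0.52, limma adjusted p = 0.0192) was lost without animal 1, 2, 3, 5 or 6, with adjusted p-values up to 0.167, and that in pancreas against liver without animal 5 (adjusted p = 0.0547).

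ST3GAL1, which caps core 1 itself, ran the other way among the glands. It had 6.50, 15.9 and 21.1 TPM in parotid, 8.10, 14.3 and 19.5 in submandibular, 0.820, 3.57 and 11.9 in sublingual libraries, 2.02, 3.40 and 5.25 in pancreas, and 11.4, 24.5 and 35.1 in liver. The sublingual maximum, that of animal 5, overlapped with parotid and submandibular gland. Sublingual gland was lower than parotid by 1.73 (log2 difference -1.73 ± 0.39, limma adjusted p = 0.00171, 5 of 6 animals) and the difference was -2.66 after scaling. ST3GAL1 and B4GALNT3 were the 2 genes called lower in sublingual gland than in parotid as deposited, and were among 9 called lower after scaling. ST3GAL4 was called in the opposite direction in the same comparison.

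The remaining sialyltransferases with named values were highest in liver. ST6GAL1, which places the alpha-2,6 sialic acid of serum N-glycans, had 6.24, 30.9 and 86.5 TPM there and at most 4.73 TPM in any of the other 24 libraries. Pancreas was 3.87 ± 0.48 below liver (limma adjusted p = 3.17e-07) and the glands 3.80 ± 0.39 below it (limma adjusted p = 7.1e-09), in 6 of 6 animals each. The liver libraries themselves spanned a wide range, with 6.24 and 6.79 TPM in animals 1 and 4 and 45.5 to 86.5 TPM in animals 2, 5 and 6. ST3GAL6 had 16.5, 21.8 and 32.7 TPM in liver, and the glands were 2.14 ± 0.28 below it (limma adjusted p = 3.85e-07). ST8SIA3, which adds sialic acid to sialic acid, was a low gene with 1.23, 2.95 and 6.17 TPM in liver and at most 0.141 TPM in any salivary gland library. Pancreas had 0.227 to 1.34 TPM, and its highest library lay above the lowest liver library.

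Of the 9 sulfotransferases, 5 were lower and 3 higher in the glands than in liver, or 4 and 4 after scaling. Of all genes 44.1% were lower and 8.49% higher there, or 25.6 and 26.1% after scaling. CHST13, CHST5 and CHST15 are among the lower ones both ways, and each would have missed the limit without its liver libraries. The limit itself therefore favours the count of lower genes, which is only a description. CHST13, which sulfates chondroitin at the 4-position, had 9.70, 20.1 and 41.0 TPM in liver and at most 0.477 TPM in any other library, with 3 libraries listed at 0. CHST5, a GlcNAc sulfotransferase, had 6.35, 8.66 and 13.6 TPM in liver and at most 0.507 TPM elsewhere. Both genes entered the 64 through the liver libraries alone. That every liver library lay above all 24 others therefore follows from the limit, and no test is given. In the same gene order CHST5 has 1 protein-coding gene between it and CHST6, which was below 1 TPM in all 30 libraries.

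CHST1, the keratan sulfate galactose sulfotransferase, was a gland gene, with 3.72, 6.39 and 7.91 TPM in parotid and 0.165, 0.419 and 0.891 in liver. All 18 gland libraries lay above all liver libraries, and the glands were 2.19 ± 0.34 higher (limma adjusted p = 6.29e-06, 6 of 6 animals). Its calls against pancreas were lost when single animals were left out, with adjusted p-values up to 0.327. CHST12, another chondroitin sulfotransferase and the highest of the class in submandibular gland, had 5.28, 8.86 and 31.6 TPM there and 1.89, 2.92 and 4.08 in liver. The glands were 1.11 ± 0.30 above liver (limma adjusted p = 0.00339), or 1.76 after scaling.

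Genes that supply these enzymes, and the proteins they act on, come from lists written with earlier results of these data known. Of 28 tested genes for sugar nucleotides, sulfate donor and their Golgi transporters, 16 were higher in sublingual gland than in parotid as deposited and 1 after trimmed-mean scaling, with median differences of 0.90 and 0.024. Of all genes 40.6 and 9.56% were higher, with medians of 0.70 and -0.004048. The one called both ways was PAPSS2, which makes the sulfate donor PAPS, at 11.9 ± 4.74 TPM in sublingual gland and 0.656 ± 0.127 in parotid (SD, n = 6; difference 2.85 ± 0.49, limma adjusted p = 0.000144). Of 13 tested genes for N-glycan trimming and branching, 8 were lower in the glands than in liver, or 5 after scaling with 3 higher, against 44.1% of all genes lower as deposited, and 25.6% lower and 26.1% higher after scaling. Of 8 tested mucin-type acceptors, 6 were higher in sublingual gland than in parotid and 5 after scaling (40.6 and 9.56% of all genes). MUC7, the small salivary mucin, averaged 9738 ± 9938 TPM in sublingual gland, and 2877 ± 2042 in submandibular gland, with 52.9 to 128 TPM in parotid libraries, and its difference between sublingual gland and parotid was 5.46 ± 0.77 (limma adjusted p = 1.53e-05). SMR3B, a proline-rich secreted protein, was the 1 acceptor lower in sublingual gland than in parotid (log2 difference -4.42 ± 0.75, limma adjusted p = 0.000129).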

How the data were processed

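The authors deposited 1 table of TPM values with 1 column per library, and 0 per-sample columns were left unused. Per the submitters' processing notes, FastQC, MultiQC, cutadapt, HISAT2, kallisto, SAMtools, featureCounts and DESeq2 were used, with no role or order. Versions, genome build and the summing of transcripts to genes are not given in the sources used here. Depth is therefore unknown, and no coordinates are printed.

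The 13550 genes reaching 1 TPM in 6 or more libraries entered 1 limma fit (version 3.58.1, under R 4.3.3) of log2(TPM + 1) on tissue and animal over all 30 libraries, with a variance trend. Two-sided p-values were adjusted by Benjamini-Hochberg within each of 8 comparisons. Labels give each animal's identity, so libraries pair by animal. Their deviations from tissue means correlated at 0.161 within animals and -0.0186 between animals. The highest correlation between 2 libraries was 0.979, with 0 identical pairs. Trimmed-mean factors were unweighted, trimming 30% of log ratios and 5% of mean levels. The fit was tested on simulated data.

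A gene was named if called with the same sign under both scalings, with a difference of at least 1 and a mean of at least 10 TPM (8 per comparison at most), or if highest in a tissue or class. Members, lists and rules were chosen with earlier results of these data known. Alternatives were another pseudocount (0.1), filters, scalings and fits, and left-out animals and libraries.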

Additional observations from a re-analysis of the deposited data

Results flagged for a closer look

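For each of the 31 named genes, the 6 libraries of a tissue were searched for a single library far from the other 5 by Dixon's criterion. About 1 of 20 sets of normally distributed values meet it by chance. Of 155 sets 30 met it, where that rate would give 7.75. The sets share libraries and some of the genes were named after their values were seen, so these numbers do not measure an excess over chance. The submandibular library of animal 4 accounted for 15 of the 30, the parotid library of animal 6 for 4 and the pancreas library of animal 4 for 3. The first and last of these are the libraries with low acinar marker sums, and the second is the parotid library with a muscle signal. The cause was not tested.

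In the submandibular library of animal 4, values above the other 5 were 52.5 TPM for ST3GAL4 (next 1.51), 13.98 for ST6GALNAC4 (next 1.96), 25.5 for ST3GAL5 (next 1.21), 4.73 for ST6GAL1 (next 0.530), 75.2 for GALNT15 (next 1.26) and 128.4 for ST6GALNAC6 (next 20.8). They were 39.03 TPM for GALNT2 (next 8.92), 30.6 for B4GALT3 (next 9.66), 22.2 for FUT11 (next 1.92), 6.34 for ST6GALNAC1 (next 0.796), 20.4 for C1GALT1C1 (next 3.33), 9.05 for B4GALT4 (next 1.49) and 0.442 for CHST5 (next 0.126). Values below the other 5 were 3.31 TPM for ST6GALNAC2 (next 57.6) and 0.594 for B4GALNT3 (next 4.50). Initiators, extenders, fucosyltransferases, sialyltransferases and sulfotransferases were all among them.

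In the parotid library of animal 6, ST6GALNAC4 was high at 8.46 TPM (next 1.30), while GALNT12 was low at 2.62 (next 5.74), B4GALNT3 at 6.52 (next 14.4) and FUT7 at 0.299 (next 1.32). In the parotid library of animal 4, ST6GAL1 was high at 0.726 TPM (next 0.362) and GCNT1 at 2.02 (next 0.430). In the pancreas library of animal 4, ST6GAL1 was high at 2.16 TPM (next 0.643), CHST12 at 18.0 (next 5.45) and ST6GALNAC1 at 3.20 (next 0.549). FUT7 was high in the pancreas library of animal 3, at 1.34 TPM (next 0.423), the library with an islet marker sum of 132640 TPM.

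In the sublingual library of animal 5, B3GNT7 was high at 16.3 TPM (next 3.36) and ST6GALNAC6 at 80.4 (next 14.3), and in that of animal 2 ST3GAL6 was high at 10.5 TPM (next 5.29). In liver, ST6GALNAC6 was low in animal 4 at 7.63 TPM (next 16.5), and GCNT1 was high in animal 3 at 1.09 TPM (next 0.353).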

How the results depend on the processing

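Of the 31 named genes, 4 were called under both scalings in no comparison and 6 entered through 1 tissue. The other 21 kept their sign in their 67 gene and comparison pairs called under both scalings, in every alternative that gave them a value. Calls held in 49 pairs throughout. The animal block changed few calls: without the replicate block 65 of 67 pairs were still called (GALNT15 in pancreas against liver and CHST1 in sublingual gland against pancreas were not), and the counts of called genes were 26, 12, 17, 3, 14, 12, 22 and 36 for sublingual gland against parotid, submandibular gland and pancreas, parotid against submandibular gland and pancreas, submandibular gland against pancreas, and pancreas and the glands against liver. The shares of all genes called in those fits were 36.3, 21.9, 12.1, 0.295, 12.4, 8.47, 27.6 and 49.5%. A filter of 5 TPM, which tested 33 of the genes, called 12 in sublingual gland against parotid, 9 against submandibular gland and 5 against pancreas. It called 13 in pancreas against liver and 20 in the glands against liver. These are 36.4, 27.3, 15.2, 39.4 and 60.6% of the 33, against 46.5, 34.6, 14.2, 34.1 and 58.5% of all genes. A minimum change of 1 on the log2 scale left 18 and 8 in sublingual gland against parotid and submandibular gland, and 15 and 22 in pancreas and the glands against liver. The shares of all genes under that minimum are not given here, so whether these counts differ from those shares cannot be told. Fitting only the compared tissues, with 12 libraries, called 6 in sublingual against submandibular gland, 20 in submandibular gland against pancreas and 0 in parotid against submandibular gland, where 15 had an unadjusted limma p below 0.05 (4.92, 19.1 and 0.0% of all genes). Submandibular gland against pancreas gave 22 with trimmed-mean scaling and 24 with quantile normalisation (16.1 and 18.6% of all genes). Without the pancreas and submandibular libraries of animal 4 the counts were 39 in sublingual against submandibular gland and 24 in submandibular gland against pancreas (66.7 and 29.4% of all genes). Without these and the parotid library of animal 6 and sublingual library of animal 5 they were 37 and 30, with 25 in parotid against pancreas and 35 in pancreas against liver (60.5, 37.4, 30.9 and 53.8% of all genes). Leaving out each animal in turn gave 19 to 40 in sublingual gland against parotid, 9 to 38 against submandibular gland and 15 to 27 against pancreas. The shares of all genes were 21.1 to 59.7, 9.45 to 65.4 and 8.15 to 31.6%. In parotid against submandibular gland these fits gave 0 to 3 (8 to 15 at an unadjusted limma p below 0.05). Against pancreas they gave 10 to 20 in parotid and 6 to 24 in submandibular gland. Against liver they gave 13 to 31 in pancreas and 31 to 45 in the glands. The shares of all genes were 0.0369 to 0.635, 6.99 to 20.1, 4.6 to 29.1, 20.8 to 48.5 and 40.9 to 66.7% in that order. Apart from the tests that use fewer genes or libraries, the cause was not tested. Depth is unknown, so precision rests on the spread of 6 animals.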

Other observations

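Of 24 tested Golgi transferases outside the name pattern, from a list written with earlier results known, 6 were higher and 4 lower in pancreas than in liver (6.76 and 23.6% of all genes), with a median log2 difference of -0.03. The 2 described here were chosen after their values were seen. ABO, the blood group transferase, which acts on the H antigen made by FUT1, averaged 30.3 ± 10.6 TPM in pancreas (SD, n = 6), 6.62 ± 5.40 in sublingual gland, 2.45 ± 2.35 in submandibular gland, 2.02 ± 0.420 in liver and 0.836 ± 0.429 in parotid. TPST2, which sulfates tyrosine in secreted proteins, averaged 225 ± 93.6 TPM in pancreas, with a lowest library of 41.3 TPM, against 4.05 ± 0.944 in parotid and 17.9 ± 3.13 in liver. No pancreas library of TPST2 overlapped with the 6 libraries of parotid, which reached 5.23 TPM, or of liver, which reached 21.7 TPM.

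MUC1, a membrane mucin, had a sublingual mean of 31.1 TPM with a range of 0.816 to 88.1 TPM and a pancreas mean of 33.6 TPM with a range of 2.51 to 46.8 TPM. MUC19 had a sublingual mean of 73.0 TPM that ranged from 1.03 to 391 TPM, and a submandibular mean of 33.2 TPM that ranged from 1.56 to 49.2 TPM.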
